A study of Mus musculus with 6 samples.

Results

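The *Hox* genes encode homeodomain transcription factors that give cells a position along the head-to-tail and limb axes. In the mouse they lie in 4 clusters (HoxA, HoxB, HoxC and HoxD), and members with the same number in different clusters form a paralog group. Low-numbered (anterior) genes are used toward the head and high-numbered (posterior) genes toward the tail and the limb tips. Fat depots keep a *Hox* pattern from the embryonic region in which they formed, and *Hoxc9* and *Hoxc10* are used as marks of white and beige fat of the subcutaneous depot. Here the members were chosen by name only, as every gene called *Hoxa*, *Hoxb*, *Hoxc* or *Hoxd* followed by a number. They were 39 genes of the 56884 gene identifiers in the tables.

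The samples were RNA-seq libraries of an immortalized cell line made from the stromal vascular fraction of mouse subcutaneous white adipose tissue (scWAT). One group stably overexpressed PPARγ2 K382Q, in which glutamine stands in for an acetylated lysine, and the other PPARγ2 K382R, in which arginine stands in for a deacetylated lysine (3 libraries each). Both proteins carried an HA tag and came from a retroviral vector under puromycin selection, so both groups hold the endogenous gene as well as the transgene. All cells were taken on day 2 of beige differentiation in medium that held 0.5 µM rosiglitazone (a PPARγ agonist), 5 µg/mL insulin, 2 µg/mL dexamethasone, 500 µM IBMX, 1 nM T3 and 125 µM indomethacin. No library of untransduced cells was analysed here, so a difference has no outside reference and could lie in either group. The sources do not say how many independent transductions stand behind the replicates, so p-values measure the spread between these libraries, and the mutant cannot be told apart from the line that carries it. Being bulk RNA, the values also cannot tell fewer cells of a kind from less RNA per cell.

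The comparison asked whether the acetylation state mimicked at K382 went with a change in the position code of these subcutaneous cells. Levels are given in TPM, a share of all transcripts that is corrected for transcript length, and a gene is called expressed at 0.5 TPM or more in at least 3 libraries. The *Pparg* row, which sums the endogenous gene and the transgene, stood at 1104 to 1333 TPM in K382Q and at 1590 to 1632 TPM in K382R libraries. The libraries hold about 5.95 to 8.15 Gb of aligned bases each, an estimate from the deposited coverage and FPKM. Of the 28 expressed *Hox* genes, 25 had a coverage of 3 or more in every library, and the lowest coverage of any was 1.05. Over all 15426 genes tested the median log2 difference (K382Q minus K382R) was −0.14, so a small negative value sits close to the middle of all genes.

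Some sequences are shown first because the text below refers to them. The *Hoxc9* levels given below are TPM and not values of the PCR assay. The study told white and beige cells from brown ones with a *Hoxc9* PCR assay, and both of its primers lie in a coding exon of *Hoxc9* on GRCm39. The forward primer matches the + strand at chr15:102890122-102890142 and the reverse primer the − strand at chr15:102890221-102890245, for a product of 124 bp.
Hoxc9 forward primer: actcgctcatctctcacgaca
Hoxc9 reverse primer: ctacaggacggaaaatcgctacagt

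The clusters also hold genes for the microRNAs miR-196 and miR-10, short RNAs that pair with target mRNAs mainly through bases 2 to 8, the seed, shown here in capitals (RefSeq, GRCm38.p6). The miR-196 pair shares 1 seed and the miR-10 pair another.
miR-196a-5p: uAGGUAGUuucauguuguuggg
miR-196b-5p: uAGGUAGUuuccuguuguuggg
miR-10a-5p: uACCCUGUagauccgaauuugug
miR-10b-5p: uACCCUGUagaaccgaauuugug

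Among the 3′ UTRs of the 39 *Hox* genes (GENCODE vM39), the window with most bases able to pair with miR-196a lay in *Hoxb8*, with 21 of 22 bases, and the next best gene was *Hoxd8* with 15. The *Hoxb8* window is at chr11:96175714-96175735 on the + strand of GRCm39, and the *Hoxb6* window below, at chr11:96192199-96192220, holds the full seed match. Capitals mark the bases that pair with miR-196a by Watson-Crick rules.
Hoxb8: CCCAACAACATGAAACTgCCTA
Hoxb6: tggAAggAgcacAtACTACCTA

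These cells expressed a broad, posterior-weighted *Hox* code without most of HoxD. Expression reached 0.5 TPM in at least 3 libraries for 10 of 11 HoxA genes, 8 of 10 HoxB genes, all 9 HoxC genes and 1 of 9 HoxD genes. The most abundant was *Hoxc10*, followed by *Hoxc6*, *Hoxa9* and *Hoxa10*, and these 4 made up 49.9% ± 0.89 (SD, n = 3) of the summed *Hox* TPM in K382Q and 46.4% ± 0.19 (SD, n = 3) in K382R cells. HoxC carried the largest share, 48.4% ± 0.24 in K382Q and 52.0% ± 0.25 in K382R cells (SD, n = 3 each). HoxA carried 26.95% ± 0.44 and 23.2% ± 0.29, HoxB 23.7% ± 0.72 and 24.2% ± 0.05, and HoxD 0.935% ± 0.09 and 0.570% ± 0.08, in the same order. By paralog group, the posterior genes (groups 9 to 13) held 53.6% ± 1.3 and 54.8% ± 0.71, and the anterior genes (groups 1 to 3) 7.45% ± 0.18 and 6.95% ± 0.17.

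The summed *Hox* level was lower in every K382Q library than in any K382R library. It ran from 397 to 408 TPM in K382Q and from 488 to 507 TPM in K382R cells. HoxC gave most of that gap, with 192 to 197 TPM against 253 to 265 TPM. HoxB ran from 92.0 to 99.5 TPM against 119 to 123 TPM, and HoxA from 107 to 110 TPM against 114 to 117 TPM. The HoxA gap depended on the scale: summed FPKM overlapped between the groups (44.11 to 45.05 against 44.23 to 45.29), and after median-ratio scaling, which divides each library by a size factor, HoxA was higher in K382Q cells (111 to 116 against 108 to 111 TPM). The sums of all *Hox* genes, HoxB and HoxC were lower in every K382Q library on all 3 scales. The other scales were tried for these sums after the data were seen.

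**Figure D1:**
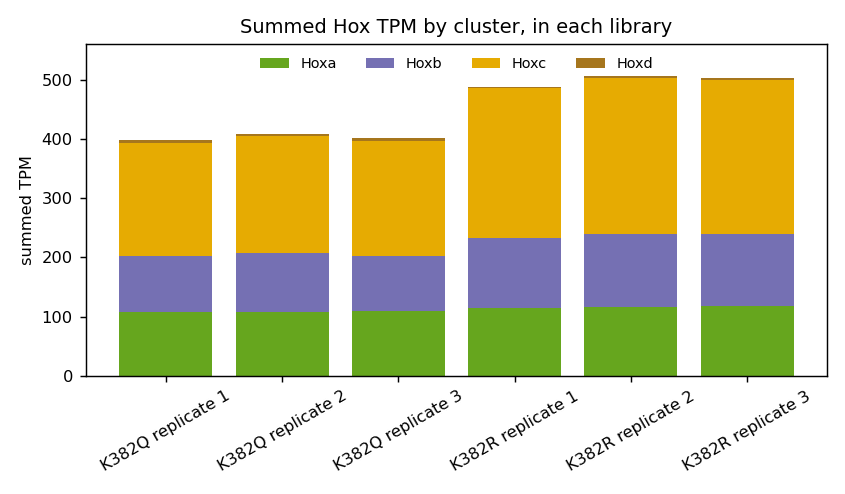
Summed TPM of the *Hox* genes of each cluster (stacked bars) in each of the 6 libraries. The K382Q bars end between 397 and 408 TPM and the K382R bars between 488 and 507 TPM, and the HoxD part is barely visible.

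Gene by gene, limma with Benjamini-Hochberg adjustment over all tested genes called 14 of the 28 expressed *Hox* genes lower in K382Q cells and 0 higher at an adjusted p under 0.05. Over all genes 48.1% were called, 36.9% lower and 11.1% higher, so that 14 of 28 is to be read against a high background. At an unadjusted p under 0.05, 17 were lower (41.1% of all genes) and 1 was higher (13.1% of all genes). The median log2 difference of the 28 genes was −0.27, against −0.14 for all genes. Over 2-fold, 2 *Hox* genes were called, both lower, where 3.88% of all genes were called, 2.61% lower and 1.27% higher. With FPKM, and after median-ratio scaling or quantile normalization, only 1 gene, *Hoxc12*, stayed lower over 2-fold. The 3 K382Q libraries lay below the 3 K382R libraries, with no overlap, for 18 *Hox* genes (42.8% of all genes) and above them for 2 (14.1% of all genes).

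The count of calls depended on how the libraries were scaled. After median-ratio scaling, which brings the median difference of all genes to 0.00, 7 *Hox* genes were lower (20.4% of all genes) and 3 higher (19.9% of all genes). The 7 were *Hoxb6*, *Hoxb8*, *Hoxc6*, *Hoxc9*, *Hoxc11*, *Hoxc12* and *Hoxc13*, and the 3 were *Hoxa4*, *Hoxa7* and *Hoxd8*. Quantile normalization named the same 7 and the same 3 genes, with 21.0% of all genes lower and 19.1% higher. With FPKM in place of TPM 10 *Hox* genes were lower and 1 higher, where 4135 and 2368 of the 15426 tested genes were. The calls of *Hoxa10*, *Hoxb3*, *Hoxb9* and *Hoxc10* were lost there (adjusted p = 0.104, 0.0541, 0.155 and 0.159, limma).

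**Figure D2:**
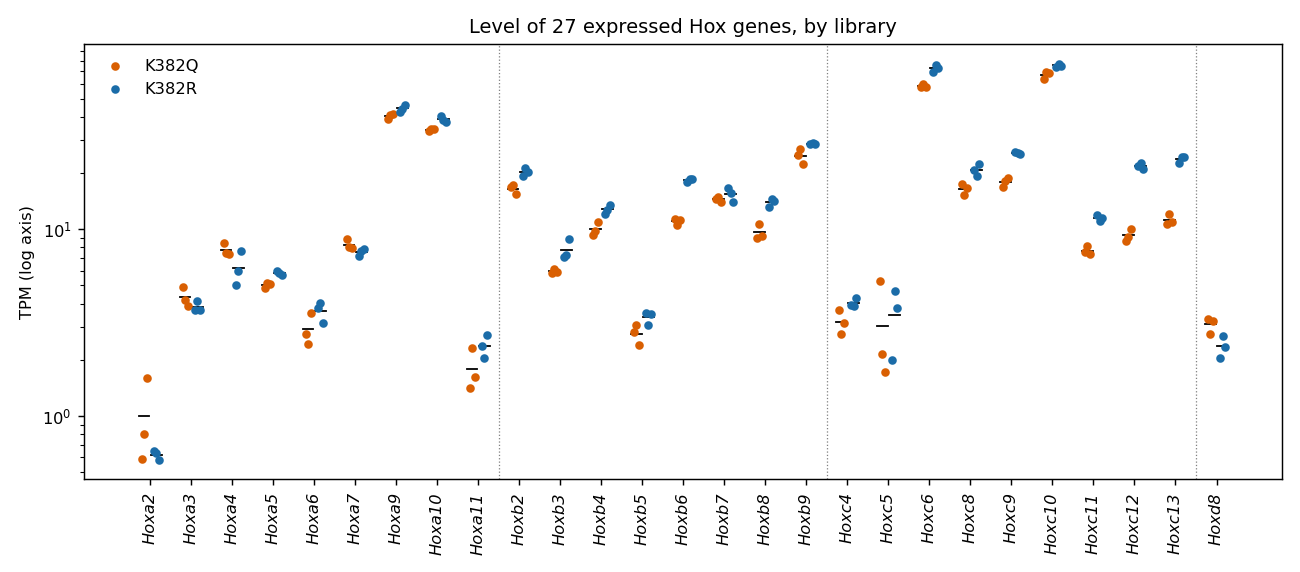
TPM (log axis) of 27 of the 28 expressed *Hox* genes in each library, by cluster (dotted lines part the clusters). Points are libraries and black bars are group means of 3. The K382Q points stand clearly below the K382R points at *Hoxb6*, *Hoxc12* and *Hoxc13*.

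HoxC held the largest differences, at its posterior end. *Hoxc13*, which directs hair and nail formation, lies at chr15:102829538-102837249 on the + strand and read 10.7, 12.0 and 10.9 TPM in the K382Q libraries against 22.8, 24.4 and 24.3 TPM in the K382R libraries. *Hoxc12*, its neighbour at chr15:102845192-102847044, read 8.68, 9.12 and 10.0 TPM against 21.8, 22.5 and 21.0 TPM. For both genes the highest K382Q value lay well under the lowest K382R value. The log2 difference was −1.06 for *Hoxc13* (SE 0.06, adjusted p = 1.13e-05, limma) and −1.19 for *Hoxc12* (SE 0.07, adjusted p = 8.34e-06, limma). The mean of *Hoxc12* was 57.4% lower in K382Q than in K382R cells and that of *Hoxc13* 53.0% lower.

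The next genes along the cluster differed less. *Hoxc11*, used in hindlimb and kidney development, read 7.59, 8.13 and 7.34 TPM against 11.9, 11.1 and 11.5 TPM, a log2 difference of −0.55 (SE 0.07, adjusted p = 4.24e-04, limma). *Hoxc10*, a mark of lumbar position and of lower-body subcutaneous fat, was the most abundant *Hox* gene, at 63.5, 69.3 and 68.7 TPM against 74.3, 77.0 and 74.9 TPM. Its groups did not overlap, but its log2 difference of −0.17 (SE 0.04, adjusted p = 0.0131, limma) lay only 0.03 beyond the median of all genes, and after median-ratio scaling it was −0.01 (adjusted p = 0.827, the smallest over all alternatives being 0.0116).

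*Hoxc9*, the white and beige marker whose primers are shown above, read 16.8, 18.1 and 18.9 TPM in K382Q and 25.9, 25.7 and 25.3 TPM in K382R cells. The K382R values lay close together and above all K382Q values. Its log2 difference was −0.51 (95% CI −0.63 to −0.38, adjusted p = 1.95e-04, limma), and its mean was 30.1% lower.

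The central HoxC genes were also lower or not called. *Hoxc8*, which works in forelimb-level motor neurons and in white fat precursors, read 17.6, 15.2 and 16.5 TPM against 20.7, 19.3 and 22.3 TPM (log2 difference −0.33, adjusted p = 0.00773, limma). After median-ratio scaling it was not called (log2 difference −0.18, adjusted p = 0.0771), nor after quantile normalization (0.0979). *Hoxc6*, active in the thorax, read 58.0, 59.8 and 57.8 TPM against 69.5, 76.1 and 73.4 TPM (log2 difference −0.32, adjusted p = 5.51e-04, limma). Over all alternatives the log2 difference of *Hoxc6* ran from −0.35 to −0.16 (largest adjusted p 0.0181, limma). Neither gene's groups overlapped. *Hoxc4* read 3.71, 2.74 and 3.15 TPM against 3.91, 3.89 and 4.27 TPM (adjusted p = 0.0817, and 0.0319 without K382Q replicate 1). *Hoxc5* was the noisiest member of the cluster, at 5.28, 2.14 and 1.72 TPM against 1.98, 4.66 and 3.78 TPM, and its 95% interval ran from −1.15 to 0.68. The *Hoxc5* gene model spans *Hoxc6*, *Hoxc8* and *Hoxc9* and begins inside *Hoxc10*, so its reads and theirs may have been divided by the estimation.

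**Figure D3:**
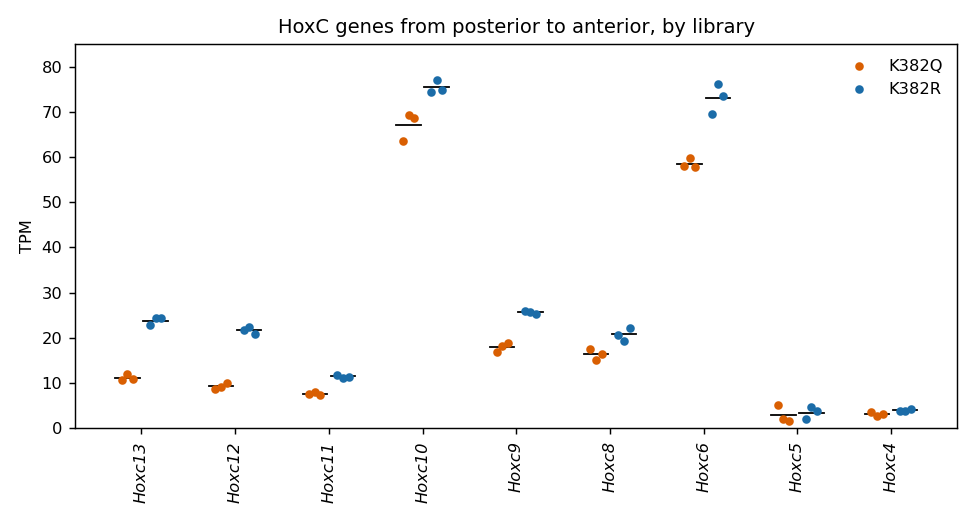
TPM of the 9 HoxC genes in each library, from the posterior end (left) to the anterior end (right). Points are libraries and black bars are group means of 3. *Hoxc12* and *Hoxc13* read 8.68 to 12.0 TPM in K382Q and 21.0 to 24.4 TPM in K382R cells.

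In HoxB 6 of the 8 expressed genes were called lower (36.9% of all genes), and 2, *Hoxb6* and *Hoxb8*, after median-ratio scaling (20.4% of all genes). *Hoxb6*, a gene of the lateral plate mesoderm, read 11.3, 10.6 and 11.2 TPM against 17.9, 18.5 and 18.5 TPM, the largest difference outside HoxC (log2 difference −0.71, SE 0.05, adjusted p = 3.74e-05, limma). *Hoxb8*, the gene with the miR-196a window shown above, read 8.99, 10.7 and 9.20 TPM against 13.1, 14.6 and 14.2 TPM (log2 difference −0.52, SE 0.08, adjusted p = 0.00144, limma). In both genes all K382Q libraries were below all K382R libraries. *Hoxb7*, which lies between them on the chromosome, read 14.5, 14.97 and 14.01 TPM against 16.7, 15.7 and 14.025 TPM and its groups overlapped (adjusted p = 0.359, 95% CI −0.26 to 0.08). Its log2 difference of −0.09 turned to 0.06 after median-ratio scaling.

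The remaining HoxB genes had smaller differences. *Hoxb9*, a thoracic patterning gene, read 25.0, 26.8 and 22.4 TPM against 28.6, 29.0 and 28.6 TPM (adjusted p = 0.0295). *Hoxb4*, known from blood stem cells, read 9.28, 9.74 and 10.98 TPM against 12.1, 12.8 and 13.6 TPM (adjusted p = 0.00936). *Hoxb3* read 5.83, 6.14 and 5.92 TPM against 7.13, 7.31 and 8.88 TPM (adjusted p = 0.0194). *Hoxb2*, a hindbrain gene, completes the 4 genes of this group that were called with no overlap between groups. It read 16.8, 17.2 and 15.5 TPM against 19.3, 21.3 and 20.2 TPM (adjusted p = 0.00598). None of these 4 was called after median-ratio scaling, where the adjusted p was 0.473 for *Hoxb9*, 0.0955 for *Hoxb4*, 0.128 for *Hoxb3* and 0.105 for *Hoxb2*. Over all alternatives the adjusted p ran from 0.0102 to 0.543 for *Hoxb9*, 0.00605 to 0.103 for *Hoxb4*, 0.0171 to 0.138 for *Hoxb3* and 0.00476 to 0.130 for *Hoxb2*. The call of *Hoxb9* was lost when any 1 of the libraries K382Q replicates 1 or 3 or K382R replicates 1, 2 or 3 was left out (adjusted p 0.0543 to 0.0767), and that of *Hoxb3* without K382Q replicate 3 or K382R replicate 3 (0.0514 and 0.0513). Both calls were also lost without a filter on low values (0.0764 and 0.0522) and with FPKM (0.155 and 0.0541, limma). That of *Hoxb9* was lost without the variance trend as well (0.0566, limma). *Hoxb5* read 2.81, 3.07 and 2.41 TPM against 3.58, 3.08 and 3.52 TPM (adjusted p = 0.122).

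In HoxA 1 of 10 tested genes was called, where 36.9% of all genes were called lower, and after median-ratio scaling 0 were lower and 2 higher, where 20.4% and 19.9% of all genes were. *Hoxa10*, needed in the uterus and hindlimb, read 33.5, 34.2 and 34.4 TPM against 40.4, 38.4 and 37.4 TPM, with no overlap (log2 difference −0.18, adjusted p = 0.00915, limma). After median-ratio scaling its log2 difference was −0.03 (adjusted p = 0.605, and 0.00838 to 0.702 over all alternatives). *Hoxa9*, a gene of blood progenitors and leukaemia, read 39.2, 41.1 and 41.6 TPM against 42.6, 44.2 and 46.5 TPM (adjusted p = 0.0538), and its log2 difference of −0.13 turned to 0.02 after median-ratio scaling. *Hoxa11*, the forearm and lower leg gene, read 1.41, 2.30 and 1.62 TPM against 2.36, 2.04 and 2.73 TPM (adjusted p = 0.146). In paralog group 11 the log2 difference was thus −0.35 (SE 0.18) for *Hoxa11* and −0.55 (SE 0.07) for *Hoxc11*, and the gap between them was not tested. Leaving out 1 library brought calls for *Hoxa9* (without K382R replicate 1, adjusted p = 0.0453) and *Hoxa11* (without K382Q replicate 2, adjusted p = 0.0453). With the replicate number as a block *Hoxa9* was called lower (adjusted p = 0.0481).

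The central and anterior HoxA genes went both ways. *Hoxa7* read 8.84, 8.02 and 7.91 TPM in K382Q and 7.15, 7.63 and 7.82 TPM in K382R cells, and *Hoxa4* read 8.43, 7.47 and 7.34 TPM against 5.02, 5.99 and 7.60 TPM. Neither was called (adjusted p = 0.227 and 0.104). After median-ratio scaling both were called higher, at log2 differences of 0.27 and 0.46 (adjusted p = 0.0218 and 0.0323, and 0.0199 to 0.476 and 0.0164 to 0.281 over all alternatives). *Hoxa4* was also called higher without K382R replicate 3 (adjusted p = 0.0164), its nearest K382R library to the K382Q values. *Hoxa5*, needed for the lung, read 4.86, 5.16 and 5.11 TPM against 6.01, 5.85 and 5.67 TPM with no overlap (adjusted p = 0.0761, and 0.0168 without the variance trend). *Hoxa6* read 2.76, 2.43 and 3.56 TPM against 3.77, 4.01 and 3.16 TPM (adjusted p = 0.161).

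At the anterior end of HoxA levels were low. *Hoxa3*, a gene of the thymus and throat arteries, read 4.88, 4.18 and 3.89 TPM against 3.70, 4.14 and 3.72 TPM (adjusted p = 0.332). *Hoxa2*, a gene of the jaw arches, read 0.591, 0.798 and 1.61 TPM against 0.649, 0.631 and 0.584 TPM, where 1 K382Q library stood apart (adjusted p = 0.291).

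HoxD was near silence apart from 1 gene. *Hoxd8* read 3.31, 2.76 and 3.21 TPM in K382Q and 2.05, 2.68 and 2.35 TPM in K382R cells, so that the K382Q libraries were all higher (log2 difference 0.33, 95% CI 0.03 to 0.63, adjusted p = 0.0698, limma). It was called higher after median-ratio scaling (adjusted p = 0.0231, and 0.0231 to 0.193 over all alternatives), after quantile normalization (0.0272), with FPKM (0.0393) and without the variance trend (0.0454). The other 8 HoxD genes stayed at or below 0.406 TPM in all libraries, that being the highest value of *Hoxd9*. The highest values were 0.305 TPM for *Hoxd4*, 0.159 TPM for *Hoxd3*, 0.0666 TPM for *Hoxd10* and 0.0485 TPM for *Hoxd13*. *Hoxd1*, *Hoxd11* and *Hoxd12* were listed at 0 in all 6 libraries. In the other clusters *Hoxb1*, a hindbrain gene, was listed at 0 throughout, *Hoxb13*, a prostate gene, reached 0.448 TPM and *Hoxa13*, a gene of the digits and hindgut, reached 0.641 TPM. That makes 11 genes below the expression threshold, of which 4 were listed at 0 in all libraries.

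**Figure D4:**
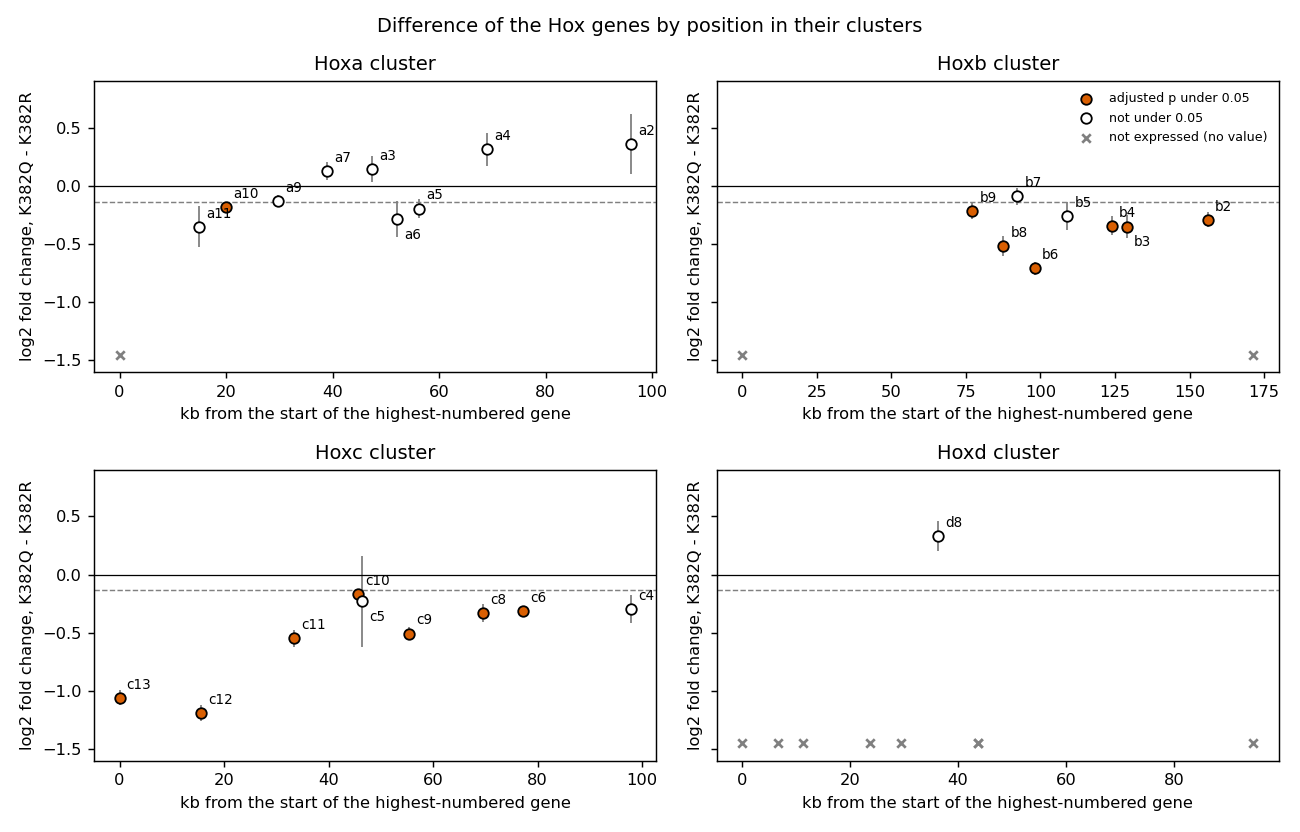
Log2 difference (K382Q minus K382R) of 27 of the 28 expressed *Hox* genes against the distance in kb from the start of the highest-numbered gene of the cluster. Distances use the outermost start of each gene model. *Hoxc5* is therefore drawn between *Hoxc10* and *Hoxc9*, and *Hoxa3* between *Hoxa7* and *Hoxa6*, out of their numbered order. Bars are standard errors, filled points have an adjusted p under 0.05, crosses are genes below the expression threshold placed at the foot of the panel and the dashed line is the median of all genes, −0.14. In the HoxC panel *Hoxc12* and *Hoxc13* lie at −1.19 and −1.06, below all other members, while HoxA spans −0.35 to 0.36.

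By paralog group the posterior genes gave 7 calls among 9 tested, with a median log2 difference of −0.35. The central genes gave 5 among 14 (median −0.27) and the anterior genes 2 among 5. Over all genes 36.9% were called lower. After median-ratio scaling 20.4% of all genes were lower and 19.9% higher. There 4 posterior genes were lower and 0 higher, 3 central genes were lower and 3 higher, and 0 anterior genes were lower and 0 higher. The differences between the classes were not tested. Within HoxC the called genes were 5 of 5 posterior and 2 of 4 central genes, and after median-ratio scaling 4 and 1.

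A promoter sequence of 300 bases around the start was on hand for 22 of the 39 *Hox* genes in RefSeq's GRCm38.p6 table (24 entries). They are richer in CG dinucleotides, where DNA methylation and Polycomb silencing act, than promoters in general: the median count was 14.5, against 7.0 over all 32851 promoters. The 3 shown here, with CG in capitals, are *Hoxb8*, which was lower in K382Q cells, *Hoxd8*, the expressed HoxD gene, and *Hoxd12*, which was listed at 0 in every library.
Hoxb8 (chr11:96281655-96281954, + strand): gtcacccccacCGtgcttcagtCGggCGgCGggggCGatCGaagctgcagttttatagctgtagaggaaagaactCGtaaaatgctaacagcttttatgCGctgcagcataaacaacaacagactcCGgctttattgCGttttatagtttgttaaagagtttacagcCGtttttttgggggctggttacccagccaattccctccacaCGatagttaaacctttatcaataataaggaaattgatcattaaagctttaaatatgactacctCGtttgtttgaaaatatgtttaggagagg
Hoxd8 (chr2:74704365-74704664, + strand): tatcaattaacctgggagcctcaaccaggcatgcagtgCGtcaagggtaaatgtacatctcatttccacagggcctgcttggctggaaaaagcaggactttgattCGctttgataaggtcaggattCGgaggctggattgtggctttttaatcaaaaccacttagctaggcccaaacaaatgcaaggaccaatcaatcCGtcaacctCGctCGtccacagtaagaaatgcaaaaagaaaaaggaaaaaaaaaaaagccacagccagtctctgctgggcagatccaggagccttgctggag
Hoxd12 (chr2:74674763-74675062, + strand): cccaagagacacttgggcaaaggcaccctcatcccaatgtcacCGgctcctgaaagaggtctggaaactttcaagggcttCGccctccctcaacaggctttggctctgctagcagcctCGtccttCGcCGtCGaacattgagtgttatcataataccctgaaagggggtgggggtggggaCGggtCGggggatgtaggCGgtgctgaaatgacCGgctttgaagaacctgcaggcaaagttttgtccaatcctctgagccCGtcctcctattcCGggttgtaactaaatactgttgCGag

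The *Hoxb8* and *Hoxd12* promoters held the same number of CG dinucleotides, 13, and that of *Hoxd8* held 6. Over the promoter entries, the median count was 13 for those of expressed and 20 for those of unexpressed *Hox* genes, with *Hoxa10* and *Hoxd11* entered 2 times each. Motifs were searched on both strands. The only HoxC gene with an entry was *Hoxc4*, which was not called, so no called HoxC gene was searched. A direct repeat of AGGTCA with 1 base between the copies, the kind bound by PPARγ with RXR, was in 0 of the 24 *Hox* promoters and in 0.0396% of all promoters. At so low a share a count of 0 in 24 was likely beforehand, so it says nothing about PPARγ binding. The letters TGATTNAT, bound by HOX with PBX proteins, were in 2 of the 24 *Hox* promoters and in 3.22% of all. The letters TAATTA, a homeodomain core, were in 2 and in 5.29%, and TATAAA was in 4 and in 13.6%.

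Targets of the microRNAs of the clusters were looked at through seed matches. The letters ACTACCT, which pair with the seed of miR-196, were in the 3′ UTR of 7 of the 28 expressed *Hox* genes (25.0%) and of 7.58% of tested genes. Those were *Hoxa4*, *Hoxa5*, *Hoxa7*, *Hoxa9*, *Hoxb6*, *Hoxb7* and *Hoxc8*, and 2 of them, *Hoxb6* and *Hoxc8*, were called lower, as were 12 of the 21 without these letters, where 36.9% of all genes were called lower. The call of *Hoxc8* was lost after median-ratio scaling. *Hoxb8* is among the 21 because its window has 1 base, opposite the seed, that is not a Watson-Crick match. The letters ACAGGGT, which pair with the seed of miR-10, were in 3 of the 28 (10.7%) and in 16.7% of tested genes. Mature microRNAs were not measured. The row of *Mir196a-1*, a short stretch between *Hoxb13* and *Hoxb9*, read 2.04, 3.41 and 1.97 TPM in K382Q and 4.78, 3.50 and 3.02 TPM in K382R cells (adjusted p = 0.0821, and 0.0197 without K382Q replicate 2), and it lies within the span of *Gm53*.

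Of 47 non-*Hox* genes between the outermost *Hox* genes of the clusters, 17 passed the filter. Of these, 2 were called lower and 0 higher (1 higher at an unadjusted p under 0.05, limma), where 36.9% of all genes were called lower. *Hotair*, a noncoding RNA at chr15:102852494-102856165 between *Hoxc12* and *Hoxc11* on the opposite strand, read 0.0766, 0.349 and 0.312 TPM against 0.810, 0.700 and 0.882 TPM. It is 1 of the 2, but it passed the filter through the K382R libraries alone, so it had to differ and its call is not given as a result. *Gm53*, a noncoding gene between *Hoxb13* and *Hoxb9*, read 3.27, 3.13 and 3.54 TPM against 4.05, 5.70 and 5.82 TPM (log2 difference −0.56, adjusted p = 0.0132, and 0.0526 without a filter on low values).

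The other 14 were not called (*Gm56053* was called higher after median-ratio scaling, adjusted p = 0.0256, after quantile normalization, 0.0277, and with FPKM, 0.0492). Leaving out 1 library brought calls for *Gm15050* (without K382R replicate 3, 0.0240), *Gm56051* and *Gm56053* (without K382R replicate 2, 0.0221 and 0.00480) and *Hoxd3os1* (without K382Q replicate 3, 0.0341). *Hotairm1*, an RNA from the anterior end of HoxA that is known from blood cells, was the most abundant, at 19.9, 26.3 and 28.4 TPM against 29.5, 22.3 and 23.4 TPM. Next were *Gm56053* (means 11.5 and 9.40 TPM in K382Q and K382R cells) and *Hoxb3os* (8.70 and 9.07 TPM). The others had means, in the same order, of 5.22 and 6.82 TPM for *Gm15050*, 2.22 and 2.21 TPM for *Hoxaas3*, 1.83 and 2.05 TPM for *Hoxb5os*, and 1.71 and 2.02 TPM for *Hoxa11os*. Lower still were *Hoxd3os1* (1.53 and 0.838 TPM), *Gm56051* (1.33 and 0.717 TPM), *Gm11536* (1.03 and 1.21 TPM) and *Gm11539* (0.717 and 0.701 TPM). The last were *Mir615* (0.667 and 0.240 TPM), *Hoxaas2* (0.530 and 0.766 TPM) and *Gm55344* (0.236 and 0.823 TPM). No strand setting is given in the sources used here, so reads of *Hox* genes and of their antisense partners cannot be told apart.

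Around the clusters the difference was mixed. Among the 5 nearest tested genes on each side of each cluster, 40 in all, 16 were called lower and 7 higher, and their median log2 difference was −0.10, where 36.9% of all genes were lower and 11.1% higher. After median-ratio scaling 8 were lower and 13 higher, where 20.4% and 19.9% of all genes were. Around HoxC 3 of the 10 were lower and 1 was higher, and the HoxC flank values ran from −0.46 to 0.28. Only *Jazf1*, a zinc finger gene and the fifth tested gene out from HoxA on its side (8.64 to 9.65 TPM in K382Q and 13.6 to 14.2 TPM in K382R cells, log2 difference −0.61, adjusted p = 2.12e-04), and *Chn1*, a signalling gene and the fifth out from HoxD on its side (1.48 to 1.68 against 2.28 to 3.03 TPM, log2 difference −0.63, adjusted p = 0.00638), passed 1.5-fold and the adjusted p together.

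Proteins that work with HOX factors differed by member. Of 9 TALE homeodomain cofactors, which bind DNA together with HOX proteins, 4 were called lower and 1 higher, with a median of −0.22, where 36.9% of all genes were lower and 11.1% higher. After median-ratio scaling 2 were lower and 3 higher (20.4% and 19.9% of all genes). *Pknox2* (PREP2) read 8.73, 8.36 and 8.62 TPM against 21.8, 22.3 and 22.7 TPM, a log2 difference of −1.33 (SE 0.05, adjusted p = 1.86e-06, limma), larger than that of any *Hox* gene tested. The most abundant cofactors differed less. *Pbx2* had means of 26.7 and 31.8 TPM (adjusted p = 0.00325) and *Pknox1* 16.4 and 15.6 TPM (adjusted p = 0.452). After median-ratio scaling *Pbx2* was not called and *Pknox1* was higher (adjusted p = 0.122 and 0.0391, with 0.0261 for *Pknox1* after quantile normalization).

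Chromatin regulators of the clusters were all expressed. Of 27 Polycomb group genes, which keep *Hox* genes silent, 10 were called lower and 2 higher (median −0.05), and of 14 Trithorax group and H3K27 demethylase genes, which keep them active, 6 were lower and 2 higher (median −0.13). None passed 2-fold, and of all genes 36.9% were lower and 11.1% higher. After median-ratio scaling the Polycomb counts became 5 lower and 6 higher and the Trithorax counts 2 lower and 4 higher, where 20.4% of all genes were lower and 19.9% higher. The most abundant Polycomb members were *Rbbp7* (means 254 and 306 TPM in K382Q and K382R cells, adjusted p = 3.79e-04), *Rbbp4* (128 and 138 TPM, adjusted p = 0.0213) and *Suz12* (102 and 97.4 TPM, adjusted p = 0.268). Those of the Trithorax list were *Dpy30* (131 and 128 TPM, adjusted p = 0.519), *Psip1* (112 and 124 TPM, adjusted p = 0.0171) and *Men1* (49.8 and 50.4 TPM, adjusted p = 0.804). After median-ratio and quantile scaling *Suz12* (adjusted p = 0.00374 and 0.00653), *Dpy30* (0.00686 and 0.0170) and *Men1* (0.0419 and 0.0279) were called higher, as was *Suz12* with FPKM (0.0335). The sign of *Rbbp4* and *Men1* turned positive after median-ratio and quantile scaling and that of *Psip1* after median-ratio scaling. *Rbbp4* and *Psip1* were not called with FPKM (adjusted p = 0.571 and 0.285), after either scaling (0.259 to 0.735 and 0.797 to 0.801) and without the variance trend (0.0744 and 0.0570). The call of *Psip1* was also lost without K382R replicate 3 (adjusted p = 0.0627), and that of *Rbbp4* without any 1 of K382Q replicates 2 or 3 or K382R replicates 1 or 3 (0.0524 to 0.0783).

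Among 15 genes of the CDX, retinoic acid and GDF11 routes, which set *Hox* boundaries in the embryo, 9 were tested, 3 were called lower and 0 higher (0 also at an unadjusted p under 0.05, limma), where 36.9% of all genes were called lower. After median-ratio scaling 1 was lower and 1, *Rara*, higher (20.4% and 19.9% of all genes). *Gdf11*, a TGF-β family signal that sets the trunk-to-tail shift of *Hox* use, read 1.91, 1.81 and 1.65 TPM against 7.20, 7.24 and 7.84 TPM (log2 difference −1.79, SE 0.10, adjusted p = 6.59e-06, limma). No K382Q library came near the K382R values. The most abundant members were *Rarg* (means 23.4 and 26.1 TPM, adjusted p = 0.0561, and lower with array weights, 0.0337, and without K382Q replicate 2, 0.0444), *Rara* (21.3 and 20.2 TPM, adjusted p = 0.237, and 0.0370 with FPKM, 0.00940 after median-ratio and 0.00834 after quantile scaling) and *Cyp26b1* (13.8 and 13.8 TPM, adjusted p = 0.972). *Cdx1*, *Cdx2* and *Cdx4* were listed at 0 in all libraries.

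Other marks of depot position were read beside the *Hox* genes. Of 18 subcutaneous and limb position factors 14 were tested and 12 were called lower, 0 higher (0 also at an unadjusted p under 0.05, limma), with a median of −0.41, where 36.9% of all genes were called lower. After median-ratio scaling 8 were lower and 0 higher, where 20.4% of all genes were lower. *Twist2* read 131, 145 and 141 TPM against 195, 195 and 187 TPM (log2 difference −0.47, adjusted p = 9.05e-05). *Prrx1*, a limb mesenchyme factor, read 46.6, 42.6 and 44.1 TPM against 56.2, 57.6 and 59.6 TPM (adjusted p = 3.35e-04), and *Twist1* had means of 78.3 and 90.3 TPM (adjusted p = 0.00784). The call of *Twist1* was lost with FPKM (adjusted p = 0.0791) and after median-ratio and quantile scaling (0.401 and 0.401). None passed 2-fold. *Tbx4* and *Six2* of the same list, named here after their values were seen, were listed at 0 in all libraries.

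Visceral marks differed widely in level, and brown marks were mostly low. *Wt1* and *Tcf21*, visceral marks named after their values were seen, were listed at 0 in every library. Of 8 visceral position factors 5 were tested, 3 being lower and 1 higher (median −0.44), where 36.9% of all genes were lower and 11.1% higher. After median-ratio scaling the counts were also 3 and 1, where 20.4% and 19.9% of all genes were. *Bnc2* read 1.15, 1.46 and 0.976 TPM against 4.20, 4.22 and 4.4004 TPM (log2 difference −1.503, SE 0.14, adjusted p = 8.44e-05, limma). *Nr2f2* was called higher, at 20.3, 17.4 and 19.2 TPM against 15.6, 15.6 and 16.5 TPM (adjusted p = 0.0195, and 0.0545 to 0.0599 when any 1 of K382Q replicates 1 or 3 or K382R replicates 1 or 2 was left out). *Nr2f1* had means of 4.32 and 8.37 TPM (adjusted p = 1.77e-04) and *Gata6* of 5.34 and 7.40 TPM (adjusted p = 0.00370).

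The brown fat marks used in the study with *Hoxc9*, namely *Zic1* and *Meox1*, were listed at 0 in all 6 libraries, as were *Meox2* and *Myf5*. The 2 brown lineage genes that passed the filter were both called lower and 0 higher (0 also at an unadjusted p under 0.05, limma), also after median-ratio scaling, where 36.9% of all genes were lower before and 20.4% after it. *Lhx8* read 2.33, 2.62 and 3.66 TPM against 5.61, 6.35 and 8.46 TPM (log2 difference −1.12, adjusted p = 0.00181), and *Pax3* read 1.80, 1.85 and 1.55 TPM against 2.59, 2.502 and 2.81 TPM (adjusted p = 0.0122). *Mpzl2* did not pass 0.216 TPM in any library.

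**Figure D5:**
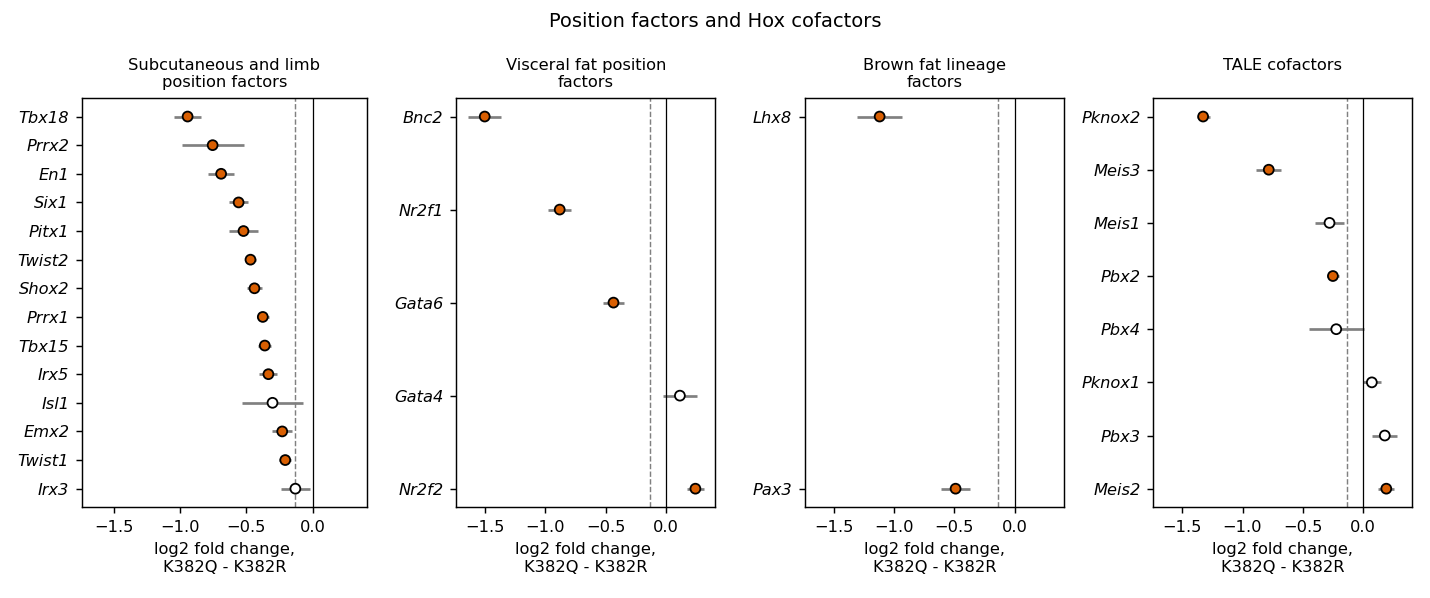
Log2 difference (K382Q minus K382R) of tested members of 4 lists (8 of the 9 TALE cofactors), with standard errors. Filled points have an adjusted p under 0.05 and the dashed line is the median of all genes, −0.14. *Bnc2* at −1.503 and *Pknox2* at −1.33 lie farthest from 0, and *Nr2f2* lies above 0.

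Tested markers of fat cell precursors were lower in K382Q cells. The calls of the cell marker lists were not recounted after median-ratio scaling. All 7 tested members of the precursor list of 10 were called lower and 0 higher (0 also at an unadjusted p under 0.05, limma), where 36.9% of all genes were lower and 11.1% higher, and the summed level of the list was 693 to 760 TPM in K382Q and 1096 to 1149 TPM in K382R cells. Their log2 differences ran from −2.79 to −0.32. Among them, named after their values were seen, *Ly6a* had means of 467 and 767 TPM (adjusted p = 1.14e-05) and *Cd24a* of 4.21 and 32.0 TPM (adjusted p = 2.51e-07), and *Dpp4* was listed at 0. Of 9 tested adipocyte markers 4 were lower and 4 higher, with *Pparg*, whose row holds the transgene, among the lower. *Adipoq* had means of 148 and 360 TPM and *Cfd* of 485 and 206 TPM. The adipocyte list summed to 53010 to 56640 TPM in K382Q and 43970 to 45130 TPM in K382R cells, with *Fabp4* at means of 47893 and 37837 TPM. Markers of leukocytes summed to 3.62 to 4.79 TPM in K382Q and 3.60 to 5.27 TPM in K382R cells, and those of endothelium to 1.65 to 2.25 and 1.71 to 1.94 TPM. *Ptprc* reached 0.0129 TPM at most and *Cdh5* 0.0903 TPM. Of 6 mesothelial markers 3 were tested and 3 were called lower, but *Msln* and *Krt8* passed the filter through the K382R libraries alone and had to differ. The list summed to 374 to 399 TPM in K382Q and 417 to 429 TPM in K382R cells, nearly all of it *Krt19* (means 387 and 421 TPM), while *Msln* had means of 0.233 and 1.67 TPM. Of 5 Schwann and neural markers 1 was tested, *Tubb3*, at means of 0.0652 and 0.761 TPM, which also passed through the K382R libraries alone, with the list at 1.08 to 1.32 and 1.20 to 1.70 TPM and *Sox10* listed at 0. Of 7 muscle markers 1 was lower (−0.94) and 1 higher (0.57) of 2 tested, with the list at 7.37 to 8.94 and 8.25 to 9.68 TPM and *Myod1* and *Myog* listed at 0. Of 4 epithelial markers 0 were tested, and the list summed to 0.302 to 0.340 and 0.129 to 0.247 TPM. The part of these markers in the *Hox* differences was not tested.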

How the data were processed

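RNA from 6 libraries was sequenced by the authors as read pairs. The authors aligned reads with HISAT2 to GRCm39 and estimated gene abundance with StringTie. The deposited tables, 1 for each library, hold TPM, FPKM and coverage for every gene. TPM values deposited by the authors were the main measure, the deposited FPKM served as an alternative and the deposited coverage to describe depth. TPM sums to a fixed total, so a change in abundant genes shifts all others. Counts, the annotation release and the strand setting are not given in the sources used here. Rows sharing a gene identifier (3 to 5 a library) were summed.

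Genes with TPM of 0.5 or more in at least 3 libraries (15426) were tested by limma 3.58.1 in R 4.3.3. The fit used log2 of TPM plus a pseudocount of 0.5, a variance trend on level and no covariate, with 2-sided tests and Benjamini-Hochberg adjustment over all of them. Fold changes are on that scale and understate low genes. The test was checked on simulated data. Of all values, at most 0.0583% were identical between any 2 libraries. Tables were joined with pandas 2.3.3 and figures drawn with matplotlib 3.10.9 in Python 3.11.15.

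Members were all genes matching the *Hox* names. The members and gene lists were chosen with earlier results of these data known. Named genes were every *Hox* gene, every tested gene inside a cluster, flanking genes called over 1.5-fold, and of each of the 7 position, cofactor and regulator lists the 3 most abundant and any called over 2-fold, with *Zic1* and *Meox1*. Cell marker examples were named after their values were seen. Of these, 1 *Hox* gene and 1 list member are not reported here and are left out of the figures, but stay in the counts. *Hox* gene coordinates are those of the deposited tables on GRCm39. Alternatives covered pseudocount, filter, unit, scaling, variance model, replicate block and leaving out each library.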

Additional observations from a re-analysis of the deposited data

How the results depend on the processing

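The 16 alternatives named in the methods were each run once, changing 1 choice at a time. *Hoxc12*, *Hoxc13*, *Hoxc11*, *Hoxc9*, *Hoxc6*, *Hoxb6* and *Hoxb8* were called lower under all 16, with log2 differences from −1.24 to −1.04 for *Hoxc12* and −1.11 to −0.91 for *Hoxc13*. Median-ratio scaling gave 7 *Hox* genes lower, 3 higher and 1 lower over 2-fold, with 3143 of all genes lower and 3069 higher, 1 higher inside the clusters, 8 flanking genes lower and 13 higher, and 23 list members lower and 15 higher. Quantile normalization gave 7, 3 and 1 for the *Hox* genes, 3241 and 2954 for all genes, 1 higher inside the clusters, 10 flanking genes lower, and 22 list members lower and 15 higher. FPKM gave 10 *Hox* genes lower, 1 higher and 1 lower over 2-fold, and 1 gene inside the clusters higher. With FPKM 11 flanking genes were lower and 10 higher, and 29 list members were lower and 10 higher. Without the variance trend 1 *Hox* gene and 4 flanking genes were higher, and without a filter or with one at 1 TPM only 1 gene inside the clusters was lower. Of these shifts the cause was not tested.

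Leaving out each library in turn gave 12 to 15 *Hox* genes lower, 0 to 1 higher (the 1 being *Hoxa4* without K382R replicate 3) and 2 lower over 2-fold. All genes ran from 4893 to 5521 lower and 1404 to 1505 higher. Inside the clusters 1 to 3 were lower and 0 to 2 higher, among flanking genes 14 to 17 and 3 to 6, and among list members 30 to 35 and 4 to 6. The count of higher flanking genes was 4 without K382Q replicate 3 and 3 without K382R replicate 2.

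The replicate numbers did not pair the libraries: same-numbered libraries deviated together with correlations of −0.018, 0.051 and 0.022. A fit with the replicate number as a block gave 15 *Hox* genes lower (*Hoxa9* being added), 0 higher and 2 lower over 2-fold, against 14, 0 and 2 without it, with 5387 of all genes lower and 1600 higher.

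Small log2 differences changed sign. Under FPKM, median-ratio scaling and quantile normalization in turn, *Hotairm1* was 0.0648, 0.134 and 0.139, *Hoxb3os* 0.0249, 0.0923 and 0.0957, *Men1* 0.0672, 0.136 and 0.155, and *Cyp26b1* 0.0739, 0.144 and 0.163. Under median-ratio scaling and quantile normalization *Hoxa9* was 0.0235 and 0.0441, *Hoxb7* 0.0584 and 0.0792, and *Rbbp4* 0.0438 and 0.0146. Under median-ratio scaling *Hoxb5os* was 0.0132 and *Psip1* 0.0127, and under quantile normalization *Rarg* was 0.000931. With array weights *Hoxaas3* was −0.0311, *Hotairm1* 0.0322, *Gm11539* 0.0925 and *Cyp26b1* 0.00581. Leaving out each library gave ranges of −0.65 to 0.0395 for *Hoxc5*, −0.16 to 0.27 for *Hoxaas3*, −0.12 to 0.13 for *Hotairm1*, −0.52 to 0.25 for *Gm11536*, −0.49 to 0.23 for *Gm11539*, −0.24 to 0.12 for *Hoxb5os*, −0.0497 to 0.0147 for *Men1*, −0.00742 to 0.0712 for *Dpy30* and −0.0443 to 0.0589 for *Cyp26b1*. The summed HoxA level, put on other scales after the data were seen, was 6.57% lower in K382Q cells in TPM, 3.89% higher after median-ratio scaling and overlapped in FPKM. Of the 28 tested *Hox* genes 3 had a coverage under 3 in some library, the lowest being 1.05 in *Hoxa3*. A loss of precision at low depth was not tested.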
